A study of Mus musculus with 18 samples.

Results

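*Slc2a5*, *Khk*, *Tkfc*, *Fbp1*, *Pck1* and *G6pc* were chosen by their symbols as genes of fructose transport, fructose breakdown and gluconeogenesis, and all 6 were found among the 18838 genes listed in at least 1 of the 3 deposited tables. The RNA came from duodenal crypts of 3 WT and 3 mice labelled Mtgr1-/-, a null of the MTG corepressor MTGR1 carried in every cell. Male and female littermates aged 8 to 12 weeks were used. From each mouse, 1 bulk library was made from fresh crypts (day 0), 1 from enteroids collected 24 h after plating (day 1) and 1 from enteroids collected after 72 h (day 3), so that 18 libraries in 6 groups of 3 were compared. Enteroids are epithelial structures that grow from plated crypts in a gel with EGF, Noggin and R-spondin. All 6 genes passed the filter on low values, a mean normalized count of at least 10, at each of the 3 time points.

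Dietary fructose enters the enterocyte from the lumen through GLUT5, the product of *Slc2a5*. Ketohexokinase (*Khk*) phosphorylates it to fructose 1-phosphate, and triokinase (*Tkfc*) phosphorylates the glyceraldehyde that is released further down. Gluconeogenesis runs the other way through glycolysis with enzymes of its own for the steps that cannot be reversed. PEPCK (*Pck1*) makes phosphoenolpyruvate from oxaloacetate, fructose-1,6-bisphosphatase (*Fbp1*) removes a phosphate from fructose 1,6-bisphosphate, and the catalytic subunit of glucose-6-phosphatase (*G6pc*) releases free glucose. Liver and kidney are the main sites of this pathway, and the small intestine also expresses its enzymes.

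The promoters of *Khk*, *Pck1* and *G6pc* are shown, 1 gene of fructose breakdown and the pair of gluconeogenesis genes that were higher at day 1, each with at least 2 of the 10 short motifs that were searched on both strands. The sequences are the 250 bases before the start site in RefSeq (GRCm38.p6, all on the + strand), at chr5:30921309-30921558, chr2:173152823-173153072 and chr11:101367466-101367715, and capitals mark the motifs.
Khk: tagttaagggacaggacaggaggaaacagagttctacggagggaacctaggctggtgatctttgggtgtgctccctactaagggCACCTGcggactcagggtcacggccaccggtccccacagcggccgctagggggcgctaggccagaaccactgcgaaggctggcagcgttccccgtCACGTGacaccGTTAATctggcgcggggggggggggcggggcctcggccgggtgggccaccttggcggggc
Pck1: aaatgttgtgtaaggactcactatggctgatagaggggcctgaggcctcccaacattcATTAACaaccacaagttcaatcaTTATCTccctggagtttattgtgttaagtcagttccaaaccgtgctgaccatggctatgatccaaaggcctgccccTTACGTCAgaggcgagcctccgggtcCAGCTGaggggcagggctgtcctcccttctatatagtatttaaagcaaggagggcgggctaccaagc
G6pc: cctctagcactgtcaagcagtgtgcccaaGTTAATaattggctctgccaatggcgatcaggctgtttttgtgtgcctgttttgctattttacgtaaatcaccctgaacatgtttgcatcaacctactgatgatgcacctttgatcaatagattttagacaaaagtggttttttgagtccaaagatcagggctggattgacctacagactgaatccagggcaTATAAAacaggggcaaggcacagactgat
The *Pck1* window held TTACGTC at -93 from the start site, letters of the cAMP response element, which 0.871% of the 32851 windows of RefSeq genes hold in the 250 bases before to 50 bases after the start site. It overlapped TGACGT on the other strand (7.51% of windows). The same window held the E-box CAGCTG at -67 (16.3% of windows), AGATAA at -169 (11.2%) and GTTAAT at -192 (7.10%), the last pair on the minus strand. In the *Khk* window, the E-boxes CACGTG at -71 (7.15%) and CACCTG at -166 (20.2%) and GTTAAT at -60 were found. The *G6pc* window held the TATA box TATAAA at -29 (13.6%) and GTTAAT at -221. CACCTG was also found in the *Fbp1* and *Tkfc* windows and AGATAA in that of *Fbp1*, whereas the *Slc2a5* window held none of the 10 motifs, and neither AAAGTCC (4.21%) nor AAAGGTC (3.77%) was found in any of the 6. A match is a string of letters and no evidence of binding.

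The depth was 22035316 to 28621990 reads on genes in the 16 libraries for which whole reads could be recovered. *Mtgr1*, listed as *Cbfa2t2*, was not lower in the libraries labelled Mtgr1-/-, with normalized counts of 697, 466 and 534 in crypts against 614, 523 and 595 in WT, and likewise at day 1 and day 3. The part of the gene that the null allele lacks is not given in the sources used here, and a count over the whole gene does not check it, so genotypes are given as the labels of the libraries. *Gata4*, 1 of 4 genes listed for the duodenum, lay between 4676 and 7131 normalized counts in all libraries, and the hepatocyte gene *Alb* at 19.4 or lower. At day 1 and day 3, *Gata4* (0.41 and 0.30), *Pdx1* (0.77 and 1.17) and *Slc40a1* (2.57 and 3.13) were higher in the libraries labelled Mtgr1-/- (limma). *Cybrd1* overlapped there, and in crypts it was lower without overlap but not called (-2.15, adjusted p = 0.0515, limma). The other 3 overlapped in crypts. Of 3 genes listed for the ileum, *Fabp6* was at 11.5 or lower, and *Slc10a2* was higher in the libraries labelled Mtgr1-/- at day 3 (2.04, adjusted p = 0.000116, limma). The last of them, *Guca2b*, had 3875 to 9060 normalized counts in WT duodenal crypts and so does not mark the ileum alone. It was higher in the libraries labelled Mtgr1-/- at day 1 (1.86) and day 3 (1.97). Single libraries stood apart from their group. WT crypt library 3 had 3795 normalized counts of the leukocyte gene *Ptprc* against 408 and 377 in the other WT crypt libraries. Crypt library 2 labelled Mtgr1-/- had 36533 normalized counts over 5 Paneth cell markers against 1142 and 882 in the others, and 12028 of the enterocyte gene *Alpi* against 35791 and 35430. In bulk samples such as these, fewer cells of a type and less RNA per cell cannot be told apart.

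In crypts, 4 of the 6 genes (*Slc2a5*, *Khk*, *Tkfc* and *Fbp1*) were lower in the libraries labelled Mtgr1-/- and 0 were higher (adjusted p under 0.05, limma), where 4.73% of all genes tested were called, 3.15% lower and 1.58% higher. The genotypes did not overlap for 5 of the 6, against 25.5% of all genes. At day 1 the direction had turned, with 5 genes higher (all but *Fbp1*) and 0 lower, where 58.9% of genes were called, 30.0% higher and 28.9% lower. The genotypes again did not overlap for 5 of the 6, against a background of 68.1%. At day 3, *Khk*, *Tkfc* and *Pck1* were higher and 0 genes lower, where 59.0% of genes were called, 29.9% higher and 29.1% lower, and 3 of 6 did not overlap, against 68.8% of genes. The median log2 fold change of the 6 genes was -1.40 in crypts, 1.32 at day 1 and 0.60 at day 3, beside 0.008, -0.008 and 0.003 for all genes tested. At an unadjusted p under 0.05, 5 genes were lower and 1 (*Pck1*) higher in crypts, and 0 were lower at day 1 and day 3. Count tests on recovered reads called 1 gene lower in crypts with edgeR (*Tkfc*) and 4 with DESeq2. With both, 5 were higher at day 1, and 3 were higher and 1 lower (*Fbp1*) at day 3. These tests ran without WT crypt library 2 and day 3 library 2 labelled Mtgr1-/-. Without that day 3 library, limma also called *Fbp1* lower (-0.78, adjusted p = 0.00931). Since most genes tested were called in the enteroids, the counts at day 1 and day 3 are to be read beside that background.

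**Figure D1:**
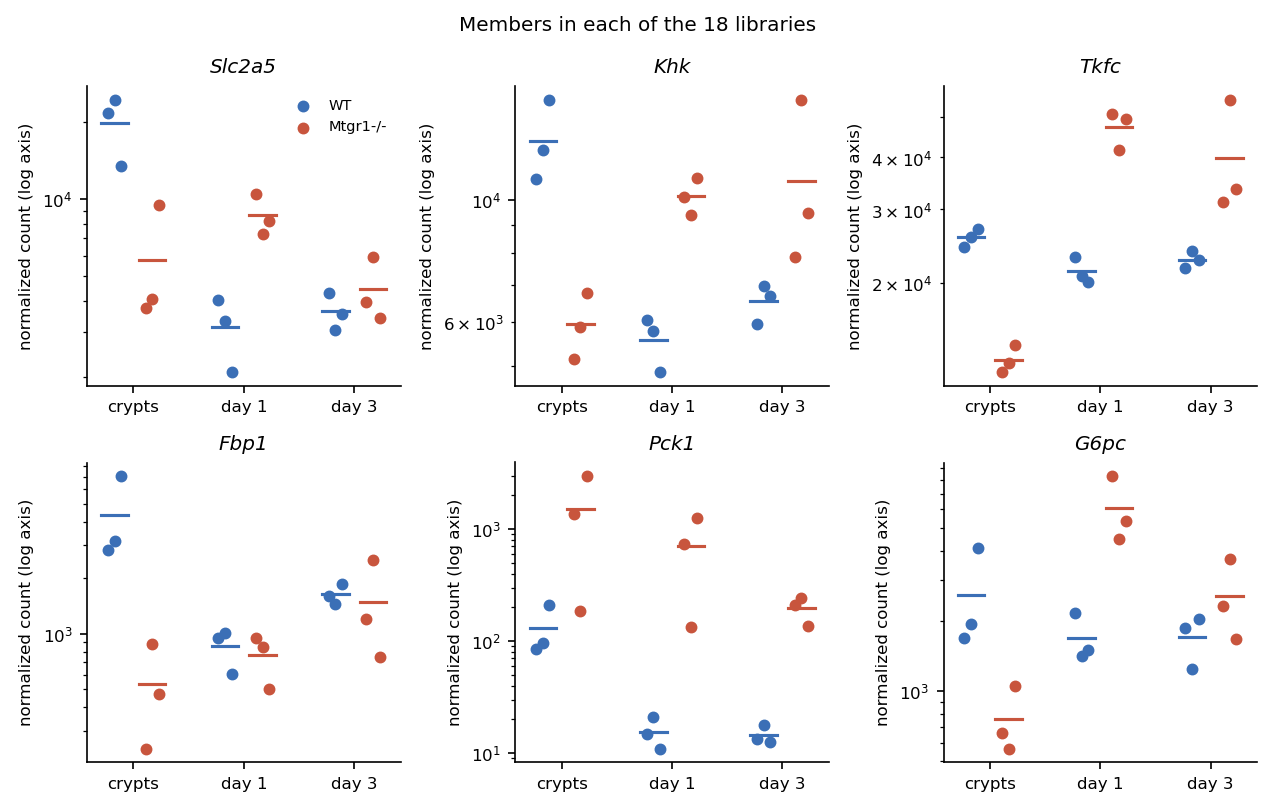
Normalized count (log axis) of each gene in the 18 libraries, by time point, with WT in blue and libraries labelled Mtgr1-/- in red. Points are libraries (1 per mouse) and bars are means of 3. *Slc2a5*, *Khk*, *Tkfc*, *Fbp1* and *G6pc* lie lower in red than in blue in crypts, and 4 of these 5 lie higher in red at day 1, whereas *Pck1* in red lies above WT at day 1 and day 3 without overlap.

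*Slc2a5* (ENSMUSG00000028976.10, chr4:150119283-150144169, + strand), the fructose transporter of the brush border, had normalized counts of 21739, 24471 and 13446 in WT crypts and 3725, 4075 and 9443 in crypts labelled Mtgr1-/-. The groups did not overlap, and mouse 3 was the lowest of its group in WT and the highest in the other. The log2 fold change was -1.88 (SE 0.39, adjusted p = 0.0449, limma), a 3.68-fold lower level. The values at day 1 were 4025, 3325 and 2096 in WT against 10420, 7292 and 8193 in enteroids labelled Mtgr1-/-. Every library labelled Mtgr1-/- was now above every WT library, with a log2 fold change of 1.49 (SE 0.24, adjusted p = 0.00147, limma). By day 3, *Slc2a5* was at 4289, 3061 and 3557 in WT and at 3940, 5903 and 3422 in the others. These groups overlapped, and the difference of 0.26 on the log2 scale (95% confidence interval -0.21 to 0.72, adjusted p = 0.304, limma) did not pass the test. The crypt call rested on few libraries. It was lost without WT library 1 or 2 and without library 1 or 2 labelled Mtgr1-/- (adjusted p 0.104 to 0.164, limma, and 0.00149 to 0.168 over all 19 alternatives, in each of which the gene was lower).

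*Khk* (ENSMUSG00000029162.15, chr5:30921431-30931248, + strand) has 2 coding transcripts in the annotation, which a gene-level count cannot separate. In crypts it had 10891, 12301 and 15165 normalized counts in WT and 5160, 5890 and 6791 in the libraries labelled Mtgr1-/-. Each of the latter held less than any WT library, and the log2 fold change was -1.10 (SE 0.16, adjusted p = 0.0129, limma). At day 1 the counts were 6064, 5786 and 4874 in WT against 10101, 9374 and 10965 in the other genotype. This is a difference of 0.87 on the log2 scale (SE 0.11, adjusted p = 0.000613, limma) with no overlap. The day 3 values were 5965, 6981 and 6709 in WT against 7888, 15129 and 9467, which gives 0.67 on the log2 scale (SE 0.21, adjusted p = 0.0260, limma). All 3 libraries labelled Mtgr1-/- were higher at day 3, and library 2 was far above the other pair. The crypt call was lost without WT library 2 (adjusted p = 0.0578, limma) or without library 1 labelled Mtgr1-/- (0.0511), and the day 3 call without any 1 of the WT libraries (0.0565 to 0.0866). Over 19 alternatives each, the direction held, with adjusted p from 4.99e-06 to 0.0657 in crypts and from 0.000744 to 0.114 at day 3.

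*Tkfc* (ENSMUSG00000034371.9, chr19:10587791-10605654, - strand) encodes triokinase. Its gene region overlaps *Cyb561a3* and *Ddb1* on the opposite strand, and the libraries were stranded. WT crypts held 24408, 25799 and 26998 normalized counts and crypts labelled Mtgr1-/- 12189, 12800 and 14183. The log2 fold change was -0.98 (SE 0.11, adjusted p = 0.00562, limma), about 1.97-fold lower, and the call was kept without each of the 6 libraries in turn (adjusted p 0.0128 to 0.0387). At day 1 the values were 23068, 20756 and 20111 in WT against 50967, 41718 and 49414 in the other genotype. This is a difference of 1.15 on the log2 scale (adjusted p = 0.000355, limma). The groups again did not overlap, with the order of the genotypes turned round. At day 3, 21698, 23795 and 22737 in WT stood against 31223, 55077 and 33581, which gives 0.77 on the log2 scale (adjusted p = 0.0122, limma), again with no overlap.

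The transporter and both kinases were thus lower in crypts labelled Mtgr1-/- and higher in day 1 enteroids grown from the same mice, each relative to WT of its time point.

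**Figure D2:**
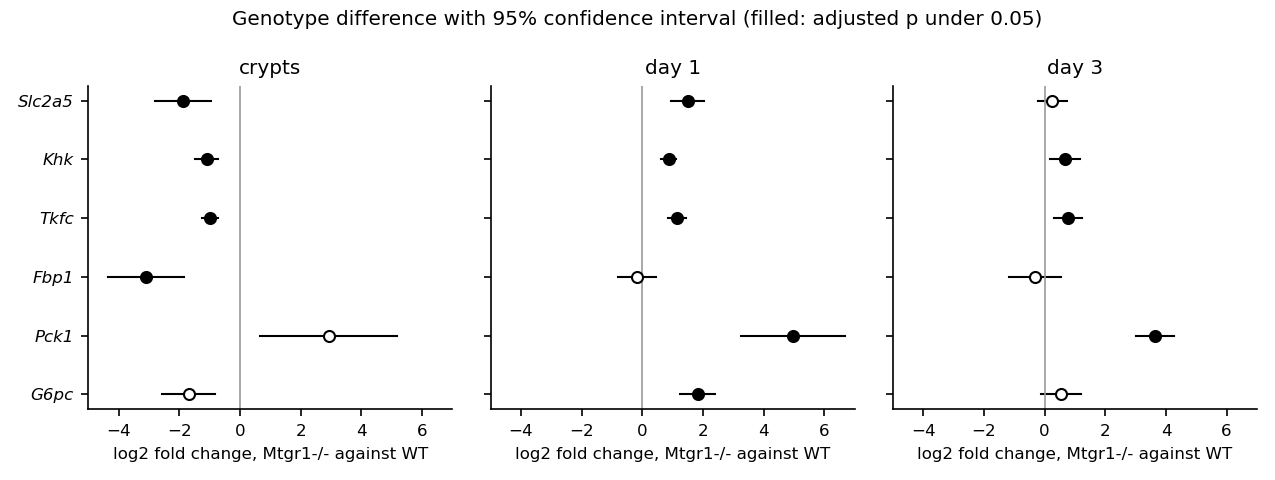
Log2 fold change of the libraries labelled Mtgr1-/- against WT with its 95% confidence interval (limma, 3 against 3 libraries) for each of the 6 genes, with a panel for crypts, day 1 and day 3. Filled points passed adjusted p under 0.05. *Slc2a5*, *Khk* and *Tkfc* lie left of 0 in crypts and right of it at day 1, *Fbp1* lies far left in crypts only, and *Pck1* lies right of 0 at all 3 time points.

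*Fbp1* (ENSMUSG00000069805.10, chr13:62864753-62888282, - strand) had the largest negative log2 fold change of the 6 in crypts. Its counts were 2821, 3176 and 7079 in WT against 239, 882 and 475 in the libraries labelled Mtgr1-/-. The lowest WT library was above the highest of the other group, and the log2 fold change was -3.10 (SE 0.52, adjusted p = 0.0230, limma), 8.57-fold lower. WT crypt library 3, with its higher *Ptprc*, had the highest *Fbp1*, and without it the log2 fold change was -2.69 (adjusted p = 0.0467, limma). The call was lost without WT library 1 or 2 and without library 1 or 3 labelled Mtgr1-/- (adjusted p 0.0535 to 0.0798, limma, and 0.00136 to 0.0813 over 19 alternatives), and the gene was lower in all of them. At day 1 the counts of *Fbp1* were 949, 1005 and 605 in WT against 942, 846 and 504 in the others. The ranges overlapped, and the log2 fold change of -0.17 had a 95% confidence interval of -0.81 to 0.46 (adjusted p = 0.601, limma). The day 3 values of 1606, 1447 and 1854 in WT against 1196, 2483 and 747 in the others overlapped too (log2 fold change -0.32, 95% confidence interval -1.17 to 0.53, adjusted p = 0.476, limma). Library 2 labelled Mtgr1-/- was the highest at day 3. Without it *Fbp1* passed the test as lower (-0.78, adjusted p = 0.00931, limma), and without library 3 of that group the sign turned (0.082, adjusted p = 0.818), within a range of 0.000266 to 0.818 over 19 alternatives.

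*G6pc* (ENSMUSG00000078650.2, chr11:101367561-101377903, + strand) had 1689, 1942 and 4086 normalized counts in WT crypts and 663, 566 and 1052 in crypts labelled Mtgr1-/-. The groups did not overlap, but the log2 fold change of -1.69 (95% confidence interval -2.57 to -0.82) did not pass the threshold (adjusted p = 0.0530, limma, and between 0.000262 and 0.154 across 19 alternatives). WT library 3 was again the highest, and without it the value was -1.30 (adjusted p = 0.0555, limma). At day 1, *G6pc* reached 8330, 4467 and 5372 in the libraries labelled Mtgr1-/- against 2170, 1407 and 1494 in WT. Its log2 fold change of 1.82 (SE 0.25, adjusted p = 0.000776, limma) was 3.52-fold. The values at day 3 were 1860, 1246 and 2030 in WT against 2306, 3695 and 1679 in the others. They overlapped, with a log2 fold change of 0.53 (95% confidence interval -0.12 to 1.19, adjusted p = 0.139, limma), and passed the test only without library 3 labelled Mtgr1-/- (0.80, adjusted p = 0.0328, limma) among the 19 alternatives.

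*Pck1* (ENSMUSG00000027513.11, chr2:173153048-173159273, + strand) differed from the other 5 in having higher values in the libraries labelled Mtgr1-/- already in crypts. There it had 84.3, 97.0 and 209.5 normalized counts in WT against 1360, 187 and 2976 in the others. Libraries 1 and 3 labelled Mtgr1-/- were far above WT, while library 2, the one with more Paneth marker RNA and less *Alpi*, lay between WT libraries 2 and 3. The log2 fold change of 2.92 (95% confidence interval 0.65 to 5.19) did not pass the test (adjusted p = 0.160, limma), whereas it was 4.06 without library 2 (adjusted p = 0.0117, limma, and between 0.00412 and 0.361 across 19 alternatives). The same mouse was lowest at day 1, where *Pck1* was at 14.6, 20.8 and 10.9 in WT and at 737, 133 and 1247 in the others. Even this library was above every WT library, and the log2 fold change was 4.96 (SE 0.74, adjusted p = 0.00111, limma), 31.2-fold. Single libraries moved this value, to 5.91 without library 2 and 4.30 without library 3 labelled Mtgr1-/-, with the call kept. At day 3, 13.4, 17.8 and 12.6 in WT stood against 208, 243 and 136, which gives 3.63 on the log2 scale (SE 0.27, adjusted p = 3.37e-05, limma), 12.4-fold. The WT values in enteroids rest on about 20 reads per library or fewer. *Pck1* and the targeted gene *Cbfa2t2* lie on the same chromosome, 18.6 Mb apart.

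The change of the genotype difference between time points was tested in 1 fit of the 18 libraries in which mouse was a random effect (limma). The correlation estimated within a mouse was -0.0048, so the libraries were treated nearly as independent. Without the mouse effect, 5040 genes were called from crypts to day 1 in place of 5025. From crypts to day 1, the change was positive and past the threshold for 5 of the 6 genes, where 41.4% of genes were called and 20.3% called with a positive change. *G6pc* changed by 3.51 on the log2 scale (adjusted p = 0.000579), *Slc2a5* by 3.37 (adjusted p = 0.000483), *Fbp1* by 2.93 (adjusted p = 0.00424), *Tkfc* by 2.13 (adjusted p = 0.000155) and *Khk* by 1.97 (adjusted p = 0.000427). For *Pck1* it was 2.04 (95% confidence interval -0.47 to 4.55, adjusted p = 0.178, limma). In all 6 genes the change from crypts to day 1 in each of the 3 mice labelled Mtgr1-/- was above that in each WT mouse. The same was seen for *Alpi*, *Sis* and *Slc2a2*, and the share of all genes with this separation was not computed. The change of *Fbp1* was from a fall to no call, and those of *Slc2a5*, *Khk* and *Tkfc* were from a fall to a rise. Without WT mouse 3 or mouse 1 labelled Mtgr1-/-, the change of *Fbp1* was 2.28 or 2.27. From crypts to day 3, the same 5 genes were called, with changes of 1.75 for *Tkfc*, 1.77 for *Khk*, 2.14 for *Slc2a5*, 2.23 for *G6pc* and 2.78 for *Fbp1* (adjusted p 0.000308 to 0.00860), where 31.6% of genes were called and 16.5% called positive. Without mouse 3 labelled Mtgr1-/-, that of *Slc2a5* was 2.73. On the CPM scale, positive and negative calls over all genes were 1190 and 4424 from crypts to day 1, against 2468 and 2557 here, and 1274 and 2834 from crypts to day 3, against 2000 and 1834, and the 5 genes kept their calls in both. *Pck1* was at 0.71 (adjusted p = 0.679).

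From day 1 to day 3, 0 of the 6 genes passed, where 0.0329% of genes did (4 of 12145, limma, with 878 at an unadjusted p under 0.05). The genotype difference of *G6pc* narrowed by 1.28 (95% confidence interval -2.36 to -0.20) and that of *Slc2a5* by 1.23 (-2.24 to -0.22) on the log2 scale, with adjusted p of 0.577 and 0.553. This count rested on 1 mouse. Without mouse 2 labelled Mtgr1-/-, 882 genes passed, among them *Tkfc* (-0.73, adjusted p = 0.0133), *Pck1* (-2.46, adjusted p = 0.0295) and *G6pc* (-1.78, adjusted p = 0.0447).

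Because each table was scaled separately, levels over time were taken as CPM, the share of a library's reads on genes scaled to a fixed total, and were not tested. In WT, *Slc2a5* went from 783 CPM in crypts to 132 at day 1 and 152 at day 3, so the WT level was 5.95-fold lower at day 1 than in crypts. In libraries labelled Mtgr1-/- it was 225, 289 and 159 CPM. The group of WT crypts was highest, with no overlap with the next, and the 4 lowest groups each overlapped the group above. *Khk* was at 502, 234 and 273 CPM in WT and at 238, 341 and 388 CPM in the others. The WT range was above that of the other genotype in crypts and below it at day 1 and day 3. *Tkfc* was at 1011, 894 and 949 CPM in WT and at 523, 1587 and 1434 CPM in the libraries labelled Mtgr1-/-, so that its level differed much more between time points in the latter.

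*Fbp1* was at 171, 35.8 and 68.2 CPM in WT and at 21.5, 25.9 and 52.5 CPM in the other genotype. The day 1 groups and crypts labelled Mtgr1-/- were thus the lowest 3 and overlapped from each to the next. *G6pc* was at 101, 70.6 and 71.5 CPM in WT and at 30.1, 202 and 91.9 CPM in the others, where day 1 stood above all other groups and crypts below all other groups. *Pck1* was at 5.10, 0.652 and 0.610 CPM in WT and at 58.2, 22.9 and 7.07 CPM in the others. The WT mean was 8.36-fold lower at day 3 than in crypts, with no overlap. In the libraries labelled Mtgr1-/- each group overlapped the next, and mouse 2 was not lower at day 3 (8.23 CPM) than in crypts (7.88 CPM). Among the 6, only *Pck1* had the same order of the 3 time points by mean CPM in both genotypes.

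Per kilobase of the longest coding transcript, *Tkfc* (367 CPM per kb) was the highest of the 6 in WT crypts, followed by *Khk* (317), *Slc2a5* (248), *Fbp1* (115), *G6pc* (41.7) and *Pck1* (1.92). The ranges of *Tkfc* and *Khk*, of *Khk* and *Slc2a5* and of *Slc2a5* and *Fbp1* overlapped. In crypts labelled Mtgr1-/-, the level of *Pck1* (21.9 CPM per kb, range 2.96 to 41.4) overlapped those of *Fbp1* (14.6) and *G6pc* (12.5). At day 1 in the same genotype, *Tkfc* stood at 575, *Khk* at 215, *Slc2a5* at 91.4, *G6pc* at 83.5, *Fbp1* at 17.5 and *Pck1* at 8.59 CPM per kb, where the ranges of *Slc2a5* and *G6pc* and those of *Fbp1* and *Pck1* overlapped.

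Other genes of fructose handling were listed by their role, 12 in all, of which 11 were tested at each time point. The share of all genes called was 4.73% in crypts, 58.9% at day 1 and 59.0% at day 3. In crypts 0 were higher (limma, edgeR and DESeq2, and 2 at an unadjusted p under 0.05 with limma) and 1 was lower in the libraries labelled Mtgr1-/-, *Mlxipl* (-1.04, adjusted p = 0.0138, limma), which encodes ChREBP, the transcription factor that responds to sugars. With edgeR 0 of this list were lower (2 at an unadjusted p under 0.05), and with DESeq2 2 were. At day 1, 7 were higher and 2 lower. The largest rises were those of *Slc2a9*, a transporter of urate (2.17), *Glyctk*, the kinase of glycerate (1.47), and *Slc2a2*, the basolateral glucose and fructose transporter GLUT2 (1.45), with adjusted p of 0.00116 or lower. *Aldh1b1*, an aldehyde dehydrogenase (-0.87), and *Akr1b3*, the aldose reductase of the polyol pathway (-0.52), were the lower pair. *Mlxipl* was at 0.094 (adjusted p = 0.491, limma) at day 1 and so did not follow *Khk* and *Tkfc*. At day 3, 4 were higher, led by *Slc2a2* (1.43), *Slc2a9* (1.39) and *Glyctk* (0.98), and *Aldh1b1* was lower (-1.15).

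Of 18 other genes of gluconeogenesis and its substrates, 17 were tested. Their calls stand beside 4.73% of all genes called in crypts, 58.9% at day 1 and 59.0% at day 3. In crypts, *Glud1*, which feeds glutamate into the cycle (0.98, adjusted p = 0.00574, limma), was higher and *Slc37a4*, the glucose 6-phosphate transporter that works with *G6pc* (-0.90, adjusted p = 0.0355), was lower. Neither direction held a call with edgeR (3 higher and 1 lower at an unadjusted p under 0.05), while DESeq2 called 3 higher and 1 lower. At day 1, 13 were higher and 2 lower. *Gpt*, the alanine aminotransferase, was higher by 2.70, *Gk*, glycerol kinase, by 2.29 and *Pcx*, pyruvate carboxylase, by 2.25 on the log2 scale. *Pck2*, the mitochondrial PEPCK (-0.85), and *G6pc3*, the widely expressed glucose-6-phosphatase (-0.44), were lower, opposite to *Pck1* and *G6pc*. *Slc37a4* was higher by 0.43 (adjusted p = 0.00865, limma). At day 3 the counts were 12 higher, led by *Gpt* (2.36), *Gk* (2.13) and *Pcx* (2.13), and 2 lower, again *Pck2* (-1.45) and *G6pc3* (-0.43). Median log2 fold changes of the list were 0.10 in crypts, 0.66 at day 1 and 0.64 at day 3.

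Among 17 transcriptional regulators of gluconeogenesis, 0 were called in crypts with limma (1 higher and 1 lower at an unadjusted p under 0.05) or edgeR, and 1 with DESeq2. At day 1, 9 of 16 tested were higher and 2 lower, and at day 3 7 of 17 were higher and 3 lower. Called in either direction were thus 11 of 16 and 10 of 17, beside 58.9% and 59.0% of all genes. The same 3 led the rises at both times. *Creb3l3*, a membrane-bound transcription factor of liver and intestine, was higher by 1.75 and 2.05, *Ppara*, a nuclear receptor for fatty acids, by 1.23 and 1.53, and *Hnf4g*, an enterocyte nuclear receptor, by 1.14 and 0.98. The lower ones were *Creb1* (-0.60 and -0.55) and *Sirt1* (-0.50 and -0.46), and at day 3 *Klf15* (-1.75), which had 33.2 normalized counts at most there. The one-way steps of glycolysis are carried out by kinases and run against *Fbp1*, *G6pc* and *Pck1*. The list of these genes also held *Pfkfb1* to *Pfkfb4*, which set the level of fructose 2,6-bisphosphate and carry out no such step. Of 12 tested, 0 were called in crypts with limma (2 higher and 3 lower at an unadjusted p under 0.05) or edgeR and 3 with DESeq2. At day 1, 6 were higher and 1 lower, and at day 3 7 were higher and 1 lower. These calls, 7 and 8 of 12, again stand beside 58.9% and 59.0% of all genes. *Hkdc1*, a hexokinase-like gene, was higher by 1.36 and 1.65 and *Pfkfb2*, a kinase that makes fructose 2,6-bisphosphate, by 1.25 and 1.20, with *Pfkfb4* after them at day 1 (1.19) and *Hk1* second at day 3 (1.34), whereas *Hk2* was lower by -1.28 and -1.05 on the log2 scale.

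**Figure D3:**
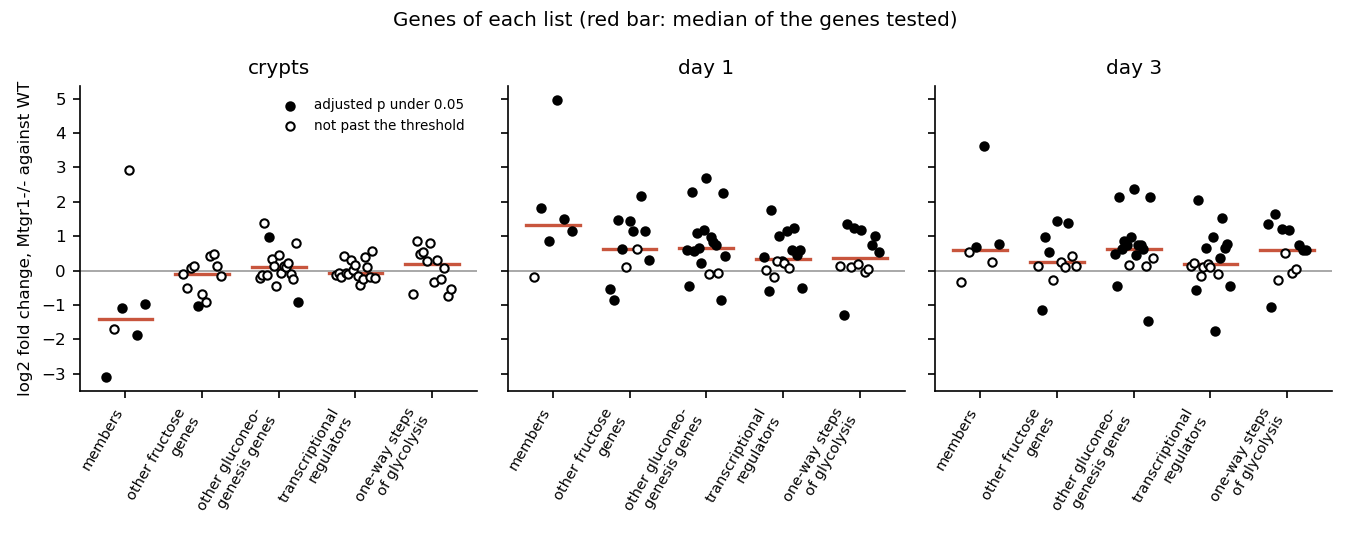
Log2 fold change of the libraries labelled Mtgr1-/- against WT for the tested genes of 5 lists in crypts, at day 1 and at day 3, with filled points for adjusted p under 0.05 (limma) and red bars for the median of each list. In crypts the median of the 6 genes lies at -1.40 while those of the other 4 lists lie between -0.11 and 0.18, and at day 1 all 5 medians lie above 0.

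Markers of enterocytes, the cells that express the fructose and gluconeogenesis genes, moved with genotype in the enteroids and mostly not in crypts. Among all genes tested, 4.73% were called in crypts, 58.9% at day 1 and 59.0% at day 3. In crypts, 0 of 10 markers were higher (limma and edgeR, 1 with DESeq2, and 2 at an unadjusted p under 0.05 with limma) and 1 was lower, *Sis*, the sucrase-isomaltase that frees fructose from sucrose (-4.51, adjusted p = 0.00285, limma). Their summed normalized counts lay between 549049 and 664594 in WT crypts and between 381063 and 685425 in crypts labelled Mtgr1-/-, so the ranges overlapped. *Sis* alone made up 192696 to 222520 of the WT sums and 4362 to 15132 of the others, so the overlap does not describe the remaining markers. Their log2 fold changes in crypts ran from -0.41 (*Alpi*) to 1.56 (*Anpep*, without overlap, adjusted p = 0.0956, limma). At day 1, 9 of 10 were higher and *Sis* lower (-2.59), and the sums were 268785 to 352420 in WT and 520061 to 825621 in the others. The day 3 sums were 200791 to 227138 and 386426 to 715796, with 9 of 10 higher. Library 2 labelled Mtgr1-/- had the highest sum at day 3 and also the highest *Slc2a5*, *Khk*, *Tkfc*, *Fbp1*, *Pck1* and *G6pc*. The part of the enterocyte markers in the differences of the 6 genes was not tested.

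**Figure D4:**
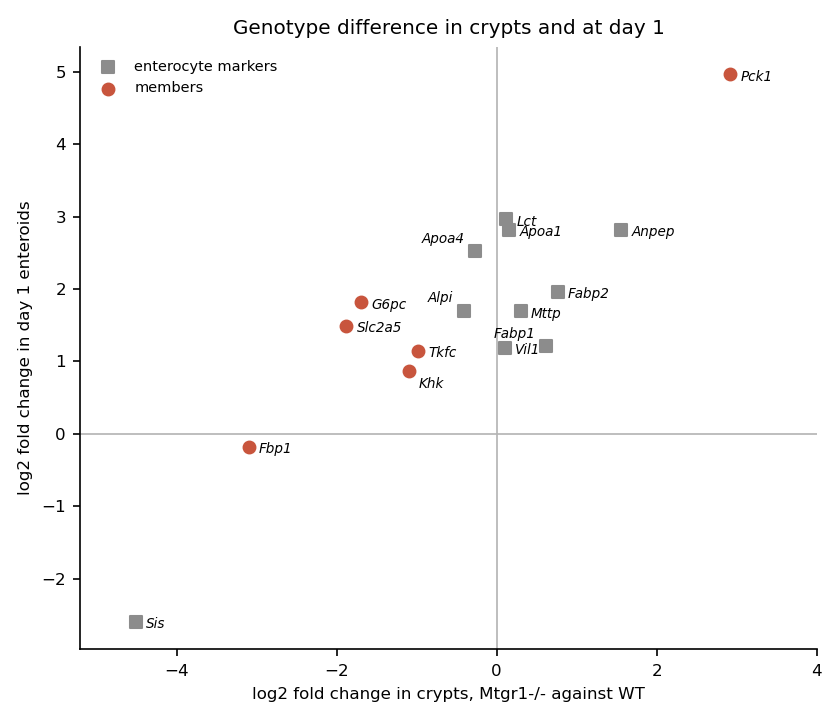
Log2 fold change in crypts (x axis) against that in day 1 enteroids (y axis), both as libraries labelled Mtgr1-/- against WT, for the 6 genes (circles) and 10 enterocyte markers (squares). *Slc2a5*, *Khk*, *Tkfc* and *G6pc* sit left of 0 and above it, 8 of the 10 markers sit between -0.41 and 0.76 on the x axis and above 1 on the y axis, and *Sis* sits low on both.

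Summed markers of Paneth and enteroendocrine cells did not overlap between the genotypes. Of all genes tested, 3.15% were called lower in crypts, 28.9% at day 1 and 29.1% at day 3. In crypts, the 5 Paneth markers summed to 107429 to 136562 in WT and to 882 to 36533 in the others, and the 5 enteroendocrine markers to 6462 to 11394 against 167 to 299. The 5 enteroendocrine markers were lower at each time point and the 5 Paneth markers at day 1 and day 3 (limma), whereas 0 of the latter passed the test in crypts with limma (5 lower at an unadjusted p under 0.05), edgeR or DESeq2. The 5 tuft cell markers summed to 1020 to 1171 in WT crypts and 1438 to 4648 in the others, with 0 of 4 tested called by limma (4 higher at an unadjusted p under 0.05) or edgeR and 3 higher by DESeq2. At day 1 the tuft sums of 334 to 530 and 216 to 372 overlapped, and 3 of the 4 were lower (limma). Immune markers summed to 38263 to 39078 in WT crypts and 3473 to 6459 in crypts labelled Mtgr1-/-, most of it *Cd74*. This was the 1 of 6 called there with limma (2 lower at an unadjusted p under 0.05), while DESeq2 called 3 lower. *Ptprc*, *Cd79a*, *Cd8a* and *Itgae* overlapped between the genotypes, and *Cd3e* did not but was not called (adjusted p = 0.231, limma). WT library 3, with its higher *Ptprc*, had the lowest *Cd74* of the WT crypts (28161 against 37627 and 37235). Stem cell markers summed to 29023 to 37318 against 2692 to 5159 in crypts, and to 24090 to 51056 against 754 to 984 at day 1. In WT crypts most of the sum was *Olfm4*, at 25673 to 33032 against 133 to 512 in the other genotype. It was the 1 of 5 stem cell markers called in crypts (-6.77, adjusted p = 0.000621, limma). *Lgr5* (0.49), *Ascl2* (-0.29), *Smoc2* (-0.31) and *Axin2* (-0.05) overlapped between the genotypes there, and all 5 were lower at day 1 (limma). The 4 goblet markers tested summed to 108315 to 130183 in WT crypts and 3576 to 5690 in the others, and all 4 were lower at each time point (limma). For the 5 markers of proliferating cells, the crypt sums of 21122 to 24898 in WT and 17139 to 23218 in the others overlapped. Of these 5, 0 were called in crypts, 4 were lower at day 1 and 5 at day 3 (limma). Stroma markers summed to 243 at most in any library. How far this makeup of the samples carries the differences of the 6 genes was not tested.

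Among 12143 other genes tested in all 3 tables, the pattern over the 18 libraries was compared by Pearson's r of log2 values centred within each table, as a description of libraries that share both genotype and time point. *Khk* was nearest to *Tkfc* (0.97), *Slc37a4* (0.96) and *Smim14* (0.95). *Tkfc* was nearest to *Adprm*, the predicted gene *Gm5485* and *Khk* (0.97 each). For *Slc2a5* the nearest were *Dnajc3* (0.95), *Bbox1* (0.94) and *Smim14* (0.90). *Bbox1*, the last enzyme of carnitine synthesis, was lower in crypts (-1.69) and higher at day 1 (1.05) by the test. *G6pc* was nearest to *Marc1* (0.95), *Gm5485* (0.93) and *Clec2e* (0.92), and *Fbp1* to *Dao* (0.92), *Rnf39* (0.88) and *Angel2* (0.87). *Pck1* stood apart from the other 5, with r between -0.44 (*Fbp1*) and 0.47 (*Tkfc*), and was nearest to *Specc1l* (0.97), *Tlcd2* and *Lpcat3* (0.96 each), of which *Tlcd2* was higher at all 3 time points (1.73, 2.57 and 2.16). *Fbp1* was the next most separate, with r of 0.49 to 0.62 to the 4 others.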

How the data were processed

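Crypts and enteroids of 3 WT and 3 mice labelled Mtgr1-/- were sequenced as stranded mRNA libraries in single reads. The authors trimmed the reads with fastp 0.20.0, quantified them with Salmon 1.3.0 against a GENCODE transcriptome, imported gene sums with tximeta 1.4.5 and used DESeq2 1.26.0. The deposited signal of a library is its count per gene divided by 1 factor per library, on a linear scale, in 1 table per time point. The deposited log2 fold changes, their standard errors, test scores and p-values of the authors, and their mean, were not used.

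In each table, tests ran on genes whose mean was at least 10, on log2(normalized count + 1) with limma 3.58.1 (trend, two-sided, Benjamini-Hochberg over all genes tested, threshold 0.05) in R 4.3.3. A fold change on this scale understates the change of low genes. The change between time points was tested in 1 fit of the 18 libraries in which mouse was a random effect. The smallest exact permutation p of 3 against 3 is 0.1. In 16 libraries reads were recovered, with 100% of values within 0.01 of whole multiples of a step. The values of WT crypt library 2 and day 3 library 2 labelled Mtgr1-/- met this too. Their steps (0.990 and 0.994) were too close to 1 to show that reads were recovered. For this reason edgeR 4.0.16 and DESeq2 1.42.0 ran without these 2. At a depth of 22035316 to 28621990 reads, the filter corresponds to about 10 reads in a library. WT and other libraries of the same mouse number deviated together at day 1 (correlation across 12587 genes 0.116, 0.231 and 0.216). When this number was added to the fit as a block, 8027 genes passed there in place of 7413, and no call of the 6 genes changed.

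The 6 genes, the gene lists and the tests were chosen with earlier results of these data known. The named genes are the 6, up to 3 largest rises and falls past the threshold of each pathway list, the 3 genes most like each of the 6, and the targeted gene. Alternatives were pseudocounts of 0.1 and 8, no filter or a mean of at least 50, CPM, median-ratio and quantile scaling, no trend, array weights, a replicate block, each library left out, and count tests. Sex, read from *Xist*, as a covariate was added after the data were seen. 1 gene of the lists is not reported here and was left out of the list counts and of the genes compared for likeness. The steps were tested on simulated data. Coordinates are those of GENCODE M21 (GRCm38).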

Additional observations from a re-analysis of the deposited data

Results flagged for a closer look

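The genotype difference of 5 of the 6 genes differed between crypts and enteroids by the test of the change itself (limma over 18 libraries, adjusted over all genes tested). Of all genes tested, 41.4% were called from crypts to day 1 and 31.6% from crypts to day 3. From crypts to day 1 the change on the log2 scale was 3.51 for *G6pc*, 3.37 for *Slc2a5*, 2.93 for *Fbp1*, 2.13 for *Tkfc* and 1.97 for *Khk*. From crypts to day 3 it was 2.23 for *G6pc*, 2.14 for *Slc2a5*, 2.78 for *Fbp1*, 1.75 for *Tkfc* and 1.77 for *Khk*. For each of these 5 genes and both spans, the 3 mice labelled Mtgr1-/- changed by more than every WT mouse in the positive direction. This was also seen for *Alpi*, *Sis* and *Slc2a2*, and its share over all genes was not computed. The enterocyte marker *Alpi* changed by 2.11 and 2.40 (adjusted p = 0.00343 and 0.00275, limma), and its part in the change of the 5 genes was not tested.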

How the results depend on the processing

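In crypts, the direction of the 6 genes held in every alternative run. The *Slc2a5* difference missed the threshold at -1.88 with a mean of at least 50 (adjusted p = 0.0522, limma), no trend (0.0899) or the replicate block (0.0848), at -1.63 with edgeR and at -1.62 with DESeq2. *Khk* missed it at -1.15 with edgeR, and *Fbp1* at -3.10 without a trend and -3.23 with edgeR. *Pck1* passed at 3.71 with array weights, and *G6pc* at -1.69 without a filter or with the replicate block (adjusted p = 0.00834, limma), -1.66 as CPM, -1.29 with array weights and -1.94 with DESeq2. The members called in crypts were 2 without a trend and 1 with edgeR, and all genes called 2100 with array weights, 209 with edgeR and 1200 with DESeq2. At day 1, *Fbp1* turned to 0.067 with array weights, and the other 5 kept their calls throughout. At day 3, *Slc2a5* turned to -0.015 with array weights, and *Khk* missed the threshold at 0.37 with quantile scaling and 0.67 without a trend. *Fbp1* passed at -1.04 with array weights, -0.76 with edgeR and -0.75 with DESeq2. The edgeR and DESeq2 runs lacked WT crypt library 2 and day 3 library 2 labelled Mtgr1-/-. With limma and without that day 3 library, *Fbp1* was at -0.78. From day 1 to day 3, 16 genes passed with a pseudocount of 8 and 22 as CPM. CPM moved the median of all genes to -0.33 at day 1 and -0.20 at day 3, with 2198 higher and 5606 lower against 3776 and 3637, and 2741 and 5087 against 3826 and 3719. Relative to this, the calls of the 6 genes in enteroids were kept (*Khk* 0.55 at day 1). The cause of these moves was not tested.

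With 1 library left out, crypt values ranged from -2.31 to -1.63 for *Slc2a5*, -1.21 to -0.97 for *Khk*, -3.56 to -2.62 for *Fbp1*, 2.07 to 4.06 for *Pck1* and -1.95 to -1.30 for *G6pc*, with 1 to 4 of the 6 called and 176 to 608 genes in all. The day 1 range of *Fbp1* was -0.40 to 0.10, turning to 0.10 without library 3 labelled Mtgr1-/-. Day 3 ranges were 0.028 to 0.42 for *Slc2a5*, 0.40 to 0.87 for *Khk*, -0.78 to 0.082 for *Fbp1* (positive without library 3 labelled Mtgr1-/-) and 0.23 to 0.80 for *G6pc*. For the change from crypts to day 1 they were 1.43 to 2.42 for *Pck1* and 3339 to 5546 genes, and from crypts to day 3 -0.61 to 1.80 for *Pck1*, negative without mouse 2 labelled Mtgr1-/-, and 1657 to 3708 genes. From day 1 to day 3, *Khk* ranged from -0.52 to 0.0033, *Tkfc* from -0.73 to -0.17, *Fbp1* from -0.51 to 0.18 (0.18 without WT mouse 3, 0.093 without mouse 1 labelled Mtgr1-/-), *Pck1* from -2.46 to -0.43 and *G6pc* from -1.78 to -0.99, with 0 to 3 of the 6 and 0 to 882 genes called. Leaving 1 library out leaves fewer samples for the same test. In crypts, WT and other libraries of the same mouse number also had positive correlations (0.076, 0.274 and 0.346). WT library 1 and library 2 labelled Mtgr1-/- had 0.201, above the lowest of these. At day 3 the correlations of the same mouse number were -0.0067, -0.0023 and -0.016. With the replicate block, 562 genes passed in crypts and 7289 at day 3, and besides *Slc2a5* and *G6pc* in crypts no call of the 6 changed. Sex as a covariate, added after the data were seen, changed none of their calls. In all, 648 values were kept. A kept gene value held its direction and its side of the threshold, and a kept count stayed near that of the fit used here. Of the rest, 16 newly passed, 23 no longer passed, 8 turned and 25 counts moved.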
